A study of Mus musculus with 2 samples.

Results

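The 7 genes described here, Stfa1, Stfa2, Stfa3, Stfa2l1, Csta2, Cstdc4 and Cstdc5, form the mouse stefin A cluster. They were taken by symbol from the 32285 genes of the count tables, and all 7 were found. They had been picked because earlier results of these data showed them high in one library, so their levels are given as descriptions without a test. Dissociated liver was measured by droplet-based 3′ single-cell RNA sequencing. The host embryos lacked Hhex, a transcription factor gene needed for liver formation, and as blastocysts had received tetraploid (4N) embryonic stem cells carrying the red fluorescent reporter tdTomato. The 2 libraries, 1 from each stage, are labelled E18.5 (a late embryonic day) and P180 (postnatal day 180), and neither is from an untreated or diploid liver. With 1 library per label no difference between labels has a replicate, and no p-value was computed. The count tables hold 0 features named tdTomato, so host and donor cells were not separated.

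Stefins belong to the cystatin family and sit inside cells, where they bind the active site of cysteine cathepsins, the proteases of lysosomes. Humans carry a single stefin A gene, CSTA, whereas the mouse locus has expanded into a row of closely related copies. In the mouse these copies are known from cells of the neutrophil lineage in the bone marrow. Neutrophils mature through stages that can be read from their granule genes: Elane and Mpo mark promyelocytes with primary granules, Camp, Ngp and Ltf mark myelocytes with secondary granules, and Retnlg, Il1b and Cxcr2 mark cells ready for or already in the circulation.

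The library labelled E18.5 held 4543 cells and the library labelled P180 held 8847 cells after filtering, with 37709972 and 90128038 UMIs (unique molecular identifiers, each standing for a captured RNA molecule) over all barcodes. Their cell makeup ran against their labels. B cell-like, T cell-like and plasma cell-like cells numbered 1309, 486 and 112 under the E18.5 label, where erythroid-like cells numbered 24. Under the P180 label 6435 cells were erythroid-like. The fetal liver forms red cells and mature lymphocytes gather in the liver after birth, so each library is named by its label only and no direction in age is drawn. No cluster of either library carried the hepatocyte name, although the tissue is given as liver. Hhex was detected in 1207 and 1299 cells (2865 and 3537 UMIs under the E18.5 and P180 labels), which cannot check the knockout because donor cells carry the gene. The libraries shared 28 cell barcodes, of which 11 were kept in both.

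The cluster lies on chromosome 16 of mm10 (GRCm38), where the 7 genes span 299 kb from 36156811 to 36455392. In the GENCODE M21 annotation 6 of them have 3 exons and Csta2 has 5, and their coding lengths run from 291 to 384 bases. Csta1, Csta3 and Cstdc6, stefin genes of the same locus that are not among the 7, lie beside or between them. To show how alike the copies are where transcription starts, 130 bases before the RefSeq start (GRCm38.p6) are printed 5′ to 3′ in the direction of the gene for Stfa1 (chr16:36277018-36277147, plus strand) and Cstdc5 (chr16:36367571-36367700, minus strand), the members with the most UMIs under the P180 label, for Stfa2l1 (chr16:36156681-36156810, plus strand), the member with the most under the E18.5 label, and for Csta2 (chr16:36221432-36221561, plus strand), which stands apart in sequence. Capitals mark the longest run of bases shared by the windows of the other 6 members, as Csta2 was set aside before the search.
Stfa1: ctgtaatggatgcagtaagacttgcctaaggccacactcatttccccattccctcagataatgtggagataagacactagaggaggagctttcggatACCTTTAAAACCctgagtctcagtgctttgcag
Cstdc5: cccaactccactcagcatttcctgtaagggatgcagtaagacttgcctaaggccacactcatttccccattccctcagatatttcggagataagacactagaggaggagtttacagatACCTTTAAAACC
Stfa2l1: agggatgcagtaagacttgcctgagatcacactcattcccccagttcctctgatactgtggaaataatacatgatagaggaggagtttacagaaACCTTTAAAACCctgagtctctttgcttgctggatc
Csta2: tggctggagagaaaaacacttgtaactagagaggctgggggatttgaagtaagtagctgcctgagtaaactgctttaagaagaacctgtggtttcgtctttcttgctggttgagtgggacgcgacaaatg
The run ACCTTTAAAACC was absent from the Csta2 window and began 12 to 36 bases before the start in the other 6 members. Its presence in those 6 follows from how it was chosen. Csta2 stands apart in this window only, as its spliced transcript is 93.7% identical to that of Cstdc4. The GENCODE gene of Csta2 begins at 36221468, inside the printed window. Those of Stfa1 (36276951) and Cstdc5 (36367748, minus strand) begin ahead of theirs. Windows at the GENCODE starts were not compared. Searched on both strands, the run was found in 11 of 32851 promoter windows of 300 bases (0.0335%), including the 6 it was taken from. Of those 11, 9 were on chromosome 16, including Csta3. The windows of Stfa1 and Cstdc5 were 96.1% identical, and those of Stfa2 and Stfa2l1 were 92.6% identical. The letters GAGGAA, the core bound by the myeloid factor PU.1, occurred in 6 of 7 windows and in 28.3% of all windows. The C/EBP letters TTGCNNAA occurred in 2 of 7 members and 10.8% of windows, the GATA letters AGATAA in 3 of 7 and 11.2%, and the TATA box letters TATAAA in 0 of 7 and 13.6%. Both strands were searched, none of these motifs is contained in another, and a match is a run of letters and not a measured binding site.

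The spliced transcripts are alike as well, which bears on every count given for a single member. Stfa2 and Stfa2l1 were 95.7% identical over their aligned bases, Csta2 and Cstdc4 93.7%, and Stfa1 and Cstdc5 80.4%, while Cstdc5 and the non-member Cstdc6 were 95.3% identical. Among windows of 60 bases in the last 300 bases of the transcript, where 3′ reads fall, 50% of those of Cstdc5, 31.3% of those of Csta2 and of Cstdc4, 22.1% of those of Stfa1, 17.5% of those of Stfa2 and 16.7% of those of Stfa2l1 were also found in another gene of the locus. Stfa3 shared 0 windows. How reads that fit several copies were assigned is not stated in the labels or headers used, so values of single members are uncertain. Sums over the copies that share windows are given beside the ratios between labels, the shares of the sum and the monocyte-like values. An antisense gene, Gm15845, overlaps Cstdc5, and the strand setting of the counting is not stated.

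Stefin A transcripts were concentrated in neutrophil-like cells of both libraries, at very different levels. Over the 399 neutrophil-like cells labelled E18.5 the 7 genes summed to 1508 UMIs, or 1107 CPM (UMIs of a gene scaled to 1000000 UMIs of the same cells; exact Poisson 95% interval 1052 to 1164). Over the 1075 neutrophil-like cells labelled P180 they summed to 2515852 UMIs, or 118541 CPM (118395 to 118688), which is 11.9% of all UMIs in those cells. These cells held 97.9% of the stefin A UMIs of all cells labelled E18.5 and 98.4% of those labelled P180. The level under the P180 label was 107-fold higher (101.8 to 112.7). RNA quality moved with the label: the median mitochondrial share was 11.9% in the neutrophil-like cells labelled E18.5 and 0.715% in those labelled P180. With under 10% mitochondrial UMIs, 137 and 1068 neutrophil-like cells remained and the log2 ratio was 7.14, against 6.74 with all of them. All such intervals cover counting error only, not differences between animals, and the members had been left out of the clustering that defined the cells.

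**Figure D1:**
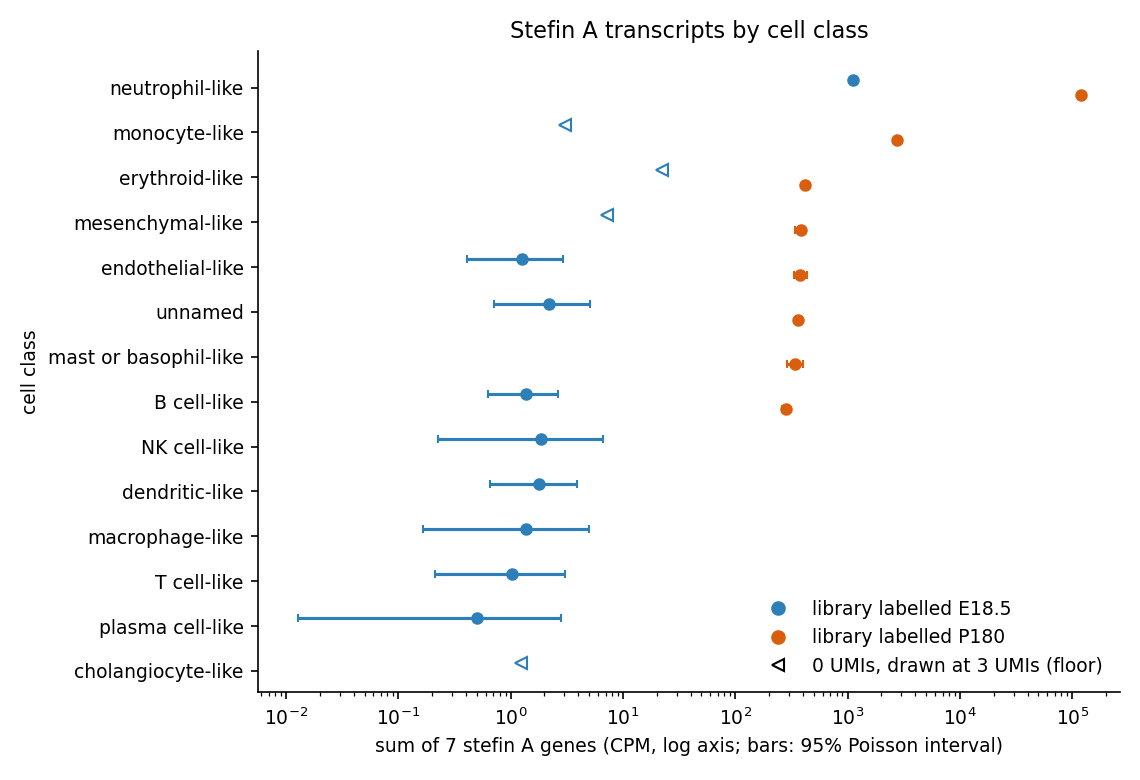
Sum of the 7 stefin A genes in each cell class (vertical axis), in CPM on a log axis, for the libraries labelled E18.5 (blue) and P180 (orange); bars are exact Poisson 95% intervals and open triangles mark classes with 0 UMIs, drawn at 3 UMIs. Neutrophil-like cells stand highest in both libraries, at 1107 and 118541 CPM.

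Cell by cell the libraries differed in the same direction. At least 1 stefin A UMI was found in 44.6% of neutrophil-like cells labelled E18.5 (exact binomial 95% interval 39.7% to 49.6%) and in 99.9% of those labelled P180 (99.5% to 99.998%). The median cell held 0 and 2183 stefin A UMIs, at median depths of 2866 and 16567 UMIs. With each cell thinned to 1000 UMIs the shares were 33.9% and 99.7%. For comparison, B cell-like cells, which are not known to make stefin A, had a UMI in 0.382% and 90.3% of cells, at median depths of 4620 and 5884 UMIs. Thinned to 1000 UMIs, the B cell-like shares were 0.0767% and 24.0%. The thinning is a random draw, and another draw of the same B cell-like cells labelled P180 gave 35.4%. All 7 members were detected together in 951 of 1075 neutrophil-like cells labelled P180 (88.5%), whereas 221 of 399 labelled E18.5 (55.4%) held none and no cell held more than 5. Under the E18.5 label, 10 cells supplied 29.3% of the neutrophil-like stefin A UMIs, against 2.77% under the P180 label.

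Under the P180 label the members ranked among the most abundant transcripts of neutrophil-like cells. Behind S100a9 and S100a8, the calprotectin subunits at ranks 1 and 2, Stfa1 stood at rank 3 (37255 CPM), Cstdc5 at 5 (32177 CPM) and Cstdc4 at 7 (19471 CPM). Stfa3 was at rank 9 (10256 CPM), Stfa2l1 at 11 (9472 CPM), Stfa2 at 15 (7019 CPM) and Csta2 at 19 (2891 CPM). Under the E18.5 label Stfa2l1 led at 576 CPM and rank 215, followed by Cstdc4 at 376 CPM and rank 378. Stfa1 reached 52.1 CPM, Cstdc5 48.5, Stfa2 39.6 and Stfa3 13.9 CPM, and Csta2 had 2 UMIs. The 3′ counts stand for molecules and need no correction for length, so levels of different members can be set side by side within the limit of shared reads. Among the non-members, Csta3 had 7.34 and 287 CPM under the E18.5 and P180 labels, Cstdc6 had 0 and 146 CPM, and Csta1 had 0 and 0.52 CPM.

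The ratio between labels was not the same for each member. It was 16.5-fold for Stfa2l1 (15.3 to 17.7) and 51.8-fold for Cstdc4 (47.5 to 56.6). It was 177-fold for Stfa2 (136 to 236), 664-fold for Cstdc5 (522 to 859), 715-fold for Stfa1 (567 to 915) and 735-fold for Stfa3 (471 to 1221). For Csta2, with 2 UMIs under the E18.5 label, it was 1969-fold with an interval from 545 to 16259. Summed over copies that share windows, the ratios were 26.8-fold for Stfa2 with Stfa2l1 (25.05 to 28.7), 59.3-fold for Csta2 with Cstdc4 (54.3 to 64.7) and 692-fold for Stfa1 with Cstdc5 and Cstdc6 (585 to 824). These sums follow the copy with more UMIs under the E18.5 label: Stfa2l1 had 784 beside 54 of Stfa2, and Cstdc4 512 beside 2 of Csta2. The sums therefore cannot check the ratios of Stfa2 and Csta2 alone. All 7 were at least 2-fold higher under the P180 label, as were 26% of the 3175 genes with at least 50 CPM in either library. At least 16-fold higher were again all 7, against 0.85% of those genes. The median log2 ratio was 9.38 over the members and -0.28 over all measured genes. These counts come from the values by which the members were picked, and Stfa2, Stfa3, Csta2 and Cstdc5 reached 50 CPM under the P180 label alone, so they are not read as a result.

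The neutrophil-like cells of the libraries were not of the same stage, which moves with these ratios. Cells led by Camp and Ngp numbered 20 of the 399 cells labelled E18.5 and 870 of the 1075 labelled P180, cells led by Retnlg and Il1b numbered 379 and 59, and cells led by Elane and Mpo (146) formed a cluster under the P180 label alone. Over all neutrophil-like cells 6 of 6 primary granule, 8 of 9 secondary granule and 12 of 12 proliferation genes were at least 2-fold higher under the P180 label. Of all 3175 measured genes 26% were higher by that much. The 12 proliferation genes summed to 200 CPM under the E18.5 label, so most of them reached 50 CPM under the P180 label alone. Their count is therefore not read as a result. Genes of mature neutrophils were at least 2-fold lower in 9 of 9 cases, where 34% of all measured genes were lower by that much. The stages were named, and the matched comparisons below chosen, after the clusters had been seen.

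Within matched stages the sum was again higher under the P180 label, which is a description, since the members were picked from these libraries. In Camp- and Ngp-led cells labelled E18.5 the sum was 297 CPM (69 UMIs; 231 to 376). In those labelled P180 it was 140107 CPM, which is 472-fold higher (373 to 607). In the same cells 9 secondary granule genes summed to 76761 and 97916 CPM. Of these 8 were less than 2-fold apart and 1 was at least 2-fold lower under the P180 label. Of all 2693 measured genes 5.01% were at least 2-fold higher and 14% at least 2-fold lower. Most genes were thus as close, and the count does not set this list apart. Summed over copies, Stfa2 with Stfa2l1 was 139-fold higher (100.6 to 199) and Csta2 with Cstdc4 277-fold higher (185 to 437). S100a8 and S100a9 together were at 254925 and 191645 CPM. The E18.5 value rests on few cells: 40% of the 20 had a stefin A UMI and a single cell held 30 of the 69 UMIs. Cstdc4, Csta2 and Stfa2 were each detected in 5% of these 20 cells, and Stfa2l1 in 25%. The intervals treat UMIs as independent, so they are too narrow for ratios that rest on so few cells. The match is also not exact, since 6 of 6 primary granule genes were at least 2-fold lower under the P180 label (Elane 1906 and 64.3 CPM), as were 14% of the 2693 genes.

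In Retnlg- and Il1b-led cells labelled E18.5 the sum was 1274 CPM (1209 to 1341). It was 64799 CPM (63832 to 65778) in those labelled P180, or 50.9-fold higher (48.2 to 53.7). S100a8 and S100a9 together were at 98430 and 86227 CPM there. Of 9 genes of mature neutrophils 7 were less than 2-fold apart and 2 at least 2-fold lower under the P180 label. Of all 2856 measured genes 360 were at least 2-fold higher and 269 at least 2-fold lower. Most genes were thus as close, and the count does not set this list apart. Stfa2l1 was 11.8-fold higher (10.9 to 12.8) and Cstdc4 26.4-fold higher (24.0 to 29.1), while Stfa1 was 288-fold higher (227 to 373). Csta2, with 0 UMIs under the E18.5 label, was at least 1414-fold higher against a floor of 3 UMIs over the group. Summed over copies, Stfa2 with Stfa2l1 was 22.5-fold higher (20.9 to 24.3), Csta2 with Cstdc4 35.0-fold (31.9 to 38.5) and Stfa1 with Cstdc5 and Cstdc6 270-fold (226 to 324). Secondary granule genes were at least 2-fold higher in 6 of 7 measured cases, a group sum of 1462 against 3879 CPM, beside 12.6% of 2856 genes. The 59 cells labelled P180 had 10 cells supplying 47.8% of the stefin A UMIs.

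**Figure D2:**
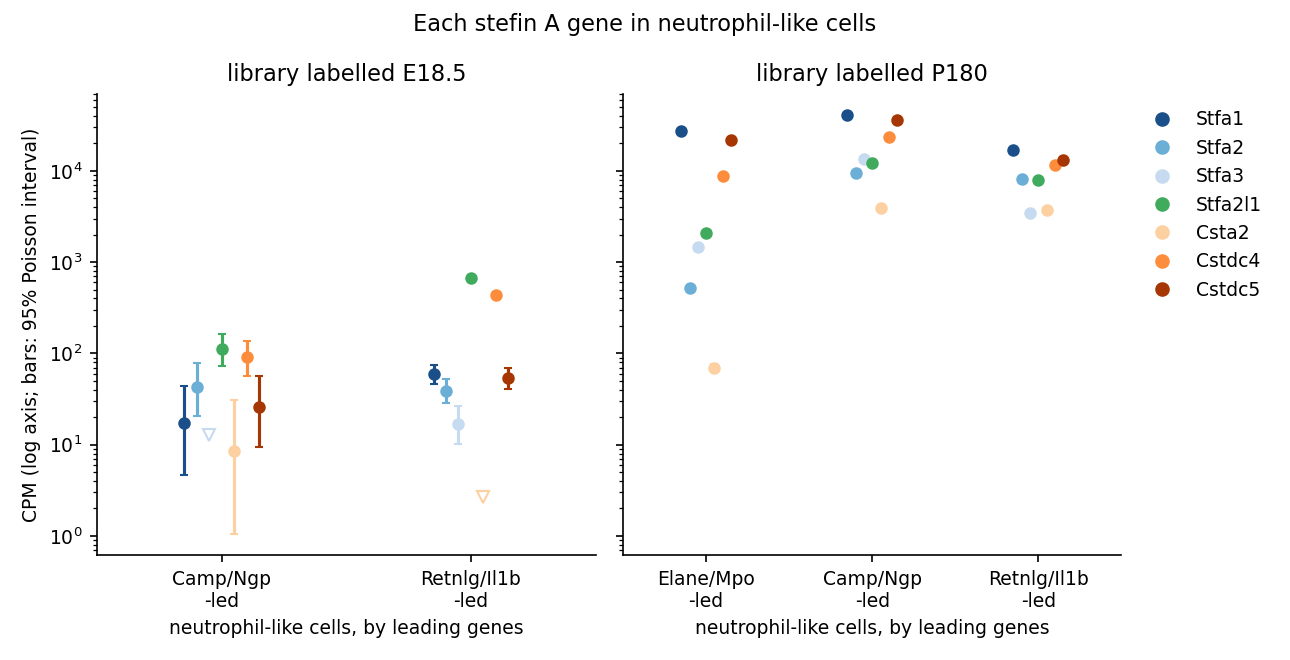
Level of each of the 7 genes in neutrophil-like cells grouped by their leading genes (horizontal axis), in CPM on a log axis, for each library; bars are exact Poisson 95% intervals and open triangles mark 0 UMIs, drawn at 3 UMIs. Under the E18.5 label Stfa2l1 and Cstdc4 stand highest in both groups, and under the P180 label Stfa1 stands highest in all 3.

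Across the stages labelled P180 the sum was highest in the middle. It was 62028 CPM in Elane- and Mpo-led cells, 140107 CPM in Camp- and Ngp-led cells and 64799 CPM in Retnlg- and Il1b-led cells. The share of a cell's UMIs that came from the 7 genes had a median of 6.45% in the first group (5th to 95th percentile 0.345% to 12.0%), 14.5% in the second (9.28% to 18.4%) and 5.72% in the third (0.561% to 12.0%). The ranges of the outer groups overlapped with each other, and each reached into that of the middle group only at its upper end. Median depth differed between the groups, at 39328, 15810 and 4127 UMIs.

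The makeup of the sum shifted along the same stages. From Elane- and Mpo-led through Camp- and Ngp-led to Retnlg- and Il1b-led cells, Stfa1 supplied 43.9%, 29.4% and 26.4% of the stefin A UMIs and Cstdc5 supplied 35.2%, 25.9% and 20.2%. Over the same groups Stfa2 went from 0.83% to 6.69% and 12.4%, Csta2 from 0.111% to 2.79% and 5.79%, and Stfa2l1 from 3.39% to 8.70% and 12.2%. Stfa3 was highest in the middle group (2.35%, 9.70% and 5.29%), and Cstdc4 moved least (14.2%, 16.8% and 17.7%). Summed over the copies that share windows, as shares of the 7 genes plus Cstdc6, Stfa2 with Stfa2l1 supplied 4.21%, 15.4% and 24.6%, and Stfa1 with Cstdc5 and Cstdc6 supplied 79.1%, 55.4% and 46.7%. The shift was thus present in sums that do not depend on how reads were divided within each set of copies.

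**Figure D3:**
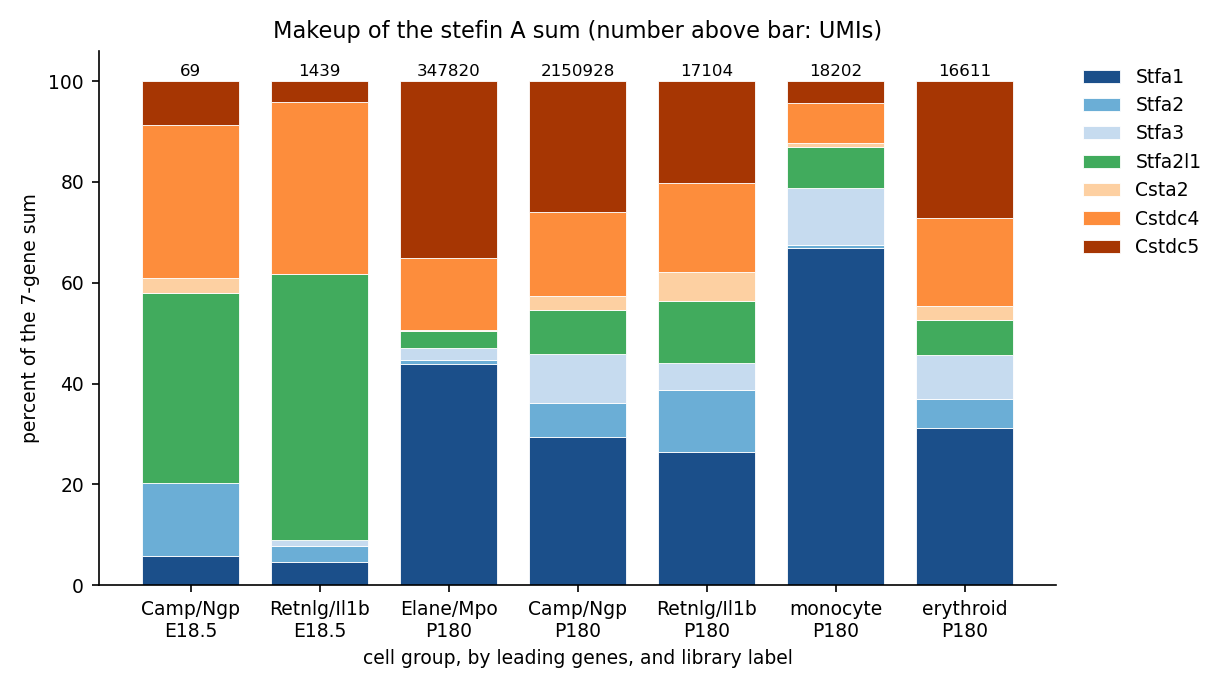
Share of each of the 7 genes in the stefin A sum (vertical axis, percent) for neutrophil-like groups of both libraries and for monocyte-like and erythroid-like cells labelled P180; the number above each bar is its stefin A UMIs. Stfa2l1 and Cstdc4 fill most of the bars labelled E18.5, of which the left one holds 69 UMIs, and Stfa1 takes its largest share, 67.0%, in monocyte-like cells labelled P180.

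Shares of Stfa1, Csta2 and Stfa2 moved in the same directions inside the Camp- and Ngp-led cells labelled P180 when these were divided into 4 groups of 217 or 218 cells by their share of UMIs from genes of mature neutrophils, a measure without the members. From the lowest to the highest group Stfa1 went from 33.4% to 30.9%, 26.5% and 23.3% of the sum. Csta2 went from 1.21% to 2.26%, 3.95% and 5.16%, and Stfa2 from 5.22% to 6.03%, 7.50% and 9.55%. Cstdc4 stayed between 16.6% and 17.0%. As shares of the 7 genes plus Cstdc6, Stfa2 with Stfa2l1 went from 13.5% to 14.8%, 16.4% and 18.55%, Csta2 with Cstdc4 from 17.8% to 19.2%, 20.7% and 21.8%, and Stfa1 with Cstdc5 and Cstdc6 from 60.5% to 56.6%, 51.8% and 48.4%. Median depth went down over the 4 groups, from 22804 to 9845 UMIs. Single cells varied more than counting alone gives: among 846 such cells with at least 100 stefin A UMIs, the Stfa1 share had an SD of 6.06 percentage points against 1.07 from binomial counting, and the Csta2 share ran from 0.0756% to 7.73% between the 5th and 95th percentiles.

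**Figure D4:**
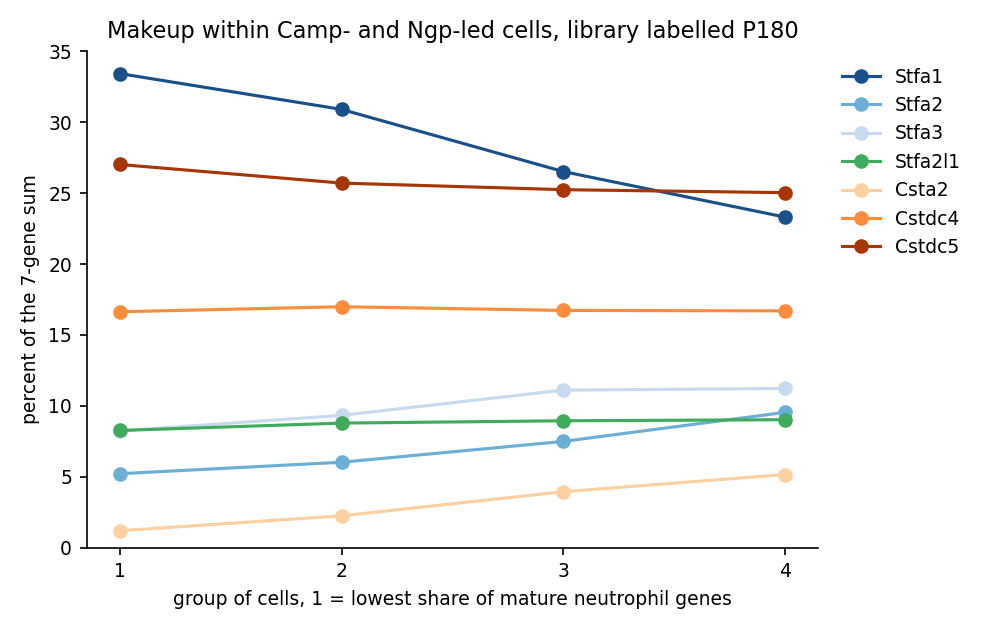
Share of each of the 7 genes in the stefin A sum (vertical axis, percent) in 4 groups of Camp- and Ngp-led cells of the library labelled P180, ordered by the share of UMIs from mature neutrophil genes (horizontal axis). Stfa1 goes from 33.4% to 23.3%, and Csta2 and Stfa2 go up to 5.16% and 9.55%.

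The makeup also differed between the libraries. Over neutrophil-like cells labelled E18.5, Stfa2l1 supplied 52.0% of the stefin A UMIs and Cstdc4 34.0%, with Stfa1 at 4.71% and Cstdc5 at 4.38%. Under the P180 label these were 7.99%, 16.4%, 31.4% and 27.1%. In the matched Retnlg- and Il1b-led cells Stfa2l1 supplied 52.7% in one library and 12.2% in the other (E18.5 label given before P180). Summed with Stfa2, its near-identical copy, it supplied 55.7% (53.1% to 58.3%) and 24.6% (24.0% to 25.3%) of the 7 genes plus Cstdc6. Stfa1 with Cstdc5 and Cstdc6 supplied 8.83% (7.41% to 10.4%) and 46.7% (45.9% to 47.4%). These binomial intervals do not overlap, and they treat UMIs as independent.

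Stefin A UMIs were also found in monocyte-like cells under the P180 label. The 114 monocyte-like cells labelled E18.5 had 0 stefin A UMIs among 983036, and the 233 labelled P180 had 18202 UMIs, or 2779 CPM (2739 to 2819), at least 911-fold higher against a floor of 3 UMIs. The cells under this name were unlike between the libraries. Under the P180 label the name rested on 3 monocyte markers among the 50 leading genes, against 2 of the next set. None of these 3 was among its 10 leading genes. Under the E18.5 label it rested on 5 against 0, with 3 among the 10 leading genes. The 12 proliferation genes summed to 21.4 CPM in the monocyte-like cells labelled E18.5 and to 2140 CPM in those labelled P180. All 12 were at least 2-fold higher in the latter, beside 22.4% of 3936 genes. With so low a sum none could reach 50 CPM in the former, so every measured one was bound to be higher. That count is therefore not read as a result. The 10 monocyte markers summed to 6657 and 3206 CPM and the 13 erythroid markers to 528 and 12760 CPM (E18.5 label given before P180). Stfa1 supplied 67.0% of the sum at 1861 CPM, Stfa3 11.3%, Stfa2l1 8.0%, Cstdc4 7.93% and Cstdc5 4.30%. As shares of the 7 genes plus Cstdc6, Stfa1 with Cstdc5 and Cstdc6 supplied 71.3%, Csta2 with Cstdc4 8.88% and Stfa2 with Stfa2l1 8.55%. The level was uneven: the median cell held 13 stefin A UMIs, 0.0537% of its UMIs, and 10 cells supplied 30.3%. It also moved with the choice of cells, to 4450 CPM with doublets kept and to 2220 CPM at a clustering resolution of 0.5, and without the minimum of 200 genes no cluster labelled P180 took the monocyte name. At resolution 0.5 the E18.5 label had 310 monocyte-like cells with 5 stefin A UMIs, and under the other choices of cells it had 0. The same cells held Mpo at 1007 CPM and Elane at 758 CPM, which were at 1.02 CPM each in monocyte-like cells labelled E18.5. All 15 neutrophil markers were detected there and summed to 11726 CPM, against 425 CPM under the E18.5 label, with Camp and Ngp at 81.2 and 42.1 CPM. The part that neutrophil-lineage RNA or the unlike cells have in this value was not tested.

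The remaining classes held little stefin A. Outside neutrophil-like and monocyte-like cells, cells labelled E18.5 had 1.24 CPM (33 UMIs) and cells labelled P180 had 401 CPM (21966 UMIs). Cholangiocyte-like, mesenchymal-like and erythroid-like cells labelled E18.5 had 0 UMIs, which allows up to 1.24, 7.27 and 22.2 CPM. Under the P180 label the level was 420 CPM in erythroid-like, 381 in mesenchymal-like, 379 in endothelial-like, 340 in mast or basophil-like and 280 CPM in B cell-like cells. In erythroid-like cells this was 0.355% of the neutrophil-like level (0.349% to 0.360%), beside 0.344% for S100a8, 0.342% for S100a9, 0.339% for Ngp, 0.345% for Ltf, 0.403% for Lcn2 and 0.433% for Camp (0.421% to 0.444%). In B cell-like cells it was 0.237%, (0.218% to 0.256%), beside 0.229% for S100a8, 0.235% for S100a9, 0.230% for Ngp, 0.268% for Ltf, 0.247% for Lcn2 and 0.301% for Camp (0.263% to 0.343%). Shares of the sum in erythroid-like cells lay close to those in neutrophil-like cells: Stfa1 supplied 31.3% and 31.4%, Cstdc5 27.2% and 27.1%, and Stfa2l1, the member furthest apart, 6.94% and 7.99%. The proportion differed between these classes beyond counting error, and in both that of Camp lay above that of the sum. Whether these UMIs came from the cells or from free RNA in the droplets was not tested, so they are not read as expression. The 20 mast or basophil-like cells stood apart in makeup, with Stfa1 at 50.6% of 156 UMIs. In monocyte-like cells the members did not share such a proportion: Stfa1 stood at 4.99% of its neutrophil-like level, Stfa3 at 3.06%, Stfa2l1 at 2.35%, Cstdc4 at 1.13%, Csta2 at 0.919%, Cstdc5 at 0.371% and Stfa2 at 0.215%. The other neutrophil genes did not share a proportion there either, with S100a8 at 7.19%, S100a9 at 3.54%, Lcn2 at 1.05%, Camp at 0.251%, Ltf at 0.206% and Ngp at 0.172%. Summed over copies the members stood at 2.85% for Stfa1 with Cstdc5 and Cstdc6, 1.44% for Stfa2 with Stfa2l1 and 1.10% for Csta2 with Cstdc4.

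Genes of the proteases that stefins bind, the cysteine cathepsins, were mostly less than 2-fold apart where they were measured. In neutrophil-like cells 5 of 10 cysteine cathepsin genes reached 50 CPM. Of these, 0 were at least 2-fold higher and 1 at least 2-fold lower under the P180 label (Ctss, 56.5 and 1.08 CPM). Over all 3175 measured genes, 26% were higher and 34% lower by that much. With the E18.5 label the cathepsin sum was 472 CPM beside 1107 CPM of stefin A, and with the P180 label it was 325 CPM beside 118541 CPM. In Camp- and Ngp-led cells 4 measured cathepsin genes were all less than 2-fold apart. Of all 2693 genes there, 5.01% were at least 2-fold higher and 14% at least 2-fold lower. In Retnlg- and Il1b-led cells 1 of 4 was at least 2-fold higher (Ctsl, 48.7 and 379 CPM from 55 and 100 UMIs). Another 1 was at least 2-fold lower (Ctss, 59.3 and 11.4 CPM), and the cathepsin sum was 474 and 765 CPM. Of 2856 genes measured in these cells, 360 (12.6%) were higher and 269 lower by that much. Of 11 other cystatin genes 2 were measured in neutrophil-like cells, and both were lower under the P180 label. Cst3, the secreted cystatin C, was at 751 and 324 CPM, and Cstb, the stefin B gene on another chromosome, at 178 and 17.6 CPM. Among 9 other protease inhibitor genes 5 were measured, of which 1 was higher and 2 lower. Both lists stand beside the 26% higher and 34% lower over all 3175 genes. So few measured genes do not set a list apart from all genes. The myeloid transcription factor Spi1, which encodes PU.1, was at 400 and 511 CPM in Camp- and Ngp-led cells, and Cebpe, a factor of the secondary granule stage, at 391 and 664 CPM.

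Over all 46 clusters of both libraries the gene whose log2 level most resembled the stefin A sum was S100a9 (Pearson r = 0.89), followed by S100a8 (0.88), Camp (0.87), Ngp (0.86), Olfm4 (0.83), Tmem40 (0.82), Eif2s3y (0.79), Gm50022 (0.78), Ltf (0.77) and Ddx3y (0.77), out of 12450 genes. The clusters share 2 libraries and their background, so these values are descriptions. Among the 10, Eif2s3y and Ddx3y are Y-linked, and Eif2s3y had 0 UMIs in neutrophil-like cells labelled E18.5. The ratio of the stefin A sum to these genes was not constant: S100a9 was at 72721 and 94392 CPM in neutrophil-like cells under the E18.5 and P180 labels, Camp at 5115 and 32322 CPM and Olfm4 at 107.9 and 2103 CPM.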

How the data were processed

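Each library's deposited table holds unnormalized UMI counts. Cell Ranger 7.1.0 wrote it, per the file headers. The submitters' processing notes also name fastp, Trimmomatic, Seurat, edgeR and mm10. The 7 genes, the lists and the comparisons were chosen with earlier results of these data known.

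Barcodes were kept from 200 genes and 500 UMIs upward when mitochondrial UMIs stayed under 25% (4721 labelled E18.5 and 9582 labelled P180). The highest Scrublet scores were left out as doublets at 0.8% per 1000 barcodes (178 and 735), since Scrublet's own threshold marked 77 and 0. Each library was clustered alone with scanpy 1.11.5 and leidenalg 0.10.2 (2000 variable genes without the 7 members, 30 principal components, 15 neighbours, resolution 1). Clusters were named from 18 marker sets and carry the suffix -like. UMIs were summed per class and library. Levels have exact Poisson, shares exact binomial and ratios exact conditional 95% intervals. A count of 0 is bounded at 3 counts. Genes with at least 50 CPM in either library were compared. The ratio interval was tested on simulated independent Poisson counts. Such counts cannot show how the interval does where UMIs gather in few cells. Python 3.11.15, scipy 1.17.1, biopython 1.88 and matplotlib 3.10.9 were used. Named genes are the 7 members, genes of the lists and the 10 most similar genes with at least 200 UMIs, by Pearson correlation of log2(CPM + 10).

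Depth was 37709972 UMIs labelled E18.5 and 90128038 labelled P180, with medians of 2326 and 5899 per barcode. RefSeq protein sequences were not used here.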

Additional observations from a re-analysis of the deposited data

Results flagged for a closer look

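Stefin A UMIs were also present in barcodes that the filters left out of the main comparisons. In the library labelled E18.5 the 5328 barcodes left out held 162 stefin A UMIs (18.4 CPM). In the library labelled P180 the 924 barcodes left out held 171381 stefin A UMIs (22712 CPM), above the level in any kept class other than neutrophil-like cells. Both counts exceed the 3 UMIs that a count of 0 allows. Of the barcodes left out, 178 labelled E18.5 and 735 labelled P180 were called doublets. With doublets kept, neutrophil-like cells labelled P180 numbered 1150 in place of 1075. Monocyte-like cells labelled P180 then held 33160 stefin A UMIs in place of 18202. No control library was measured, and in the main comparisons the cells behind these barcodes were not named.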

How the results depend on the processing

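Values of the report's main results stayed on their side under all alternatives tried, and none changed direction. The neutrophil-like class held the same 399 and 1075 cells with the members kept for clustering, at resolution 0.5 and with seed 2, although the number of clusters changed. The log2 ratio of the sum in neutrophil-like cells (P180 label over E18.5 label), 6.74 in the report, moved to 6.27 without Stfa1, to 7.14 with under 10% mitochondrial UMIs and to 6.65 without a minimum of genes. In comparisons chosen after seeing the data it was 8.88 in Camp- and Ngp-led and 5.67 in Retnlg- and Il1b-led cells. The share of stefin A UMIs in neutrophil-like cells labelled E18.5, 97.9% in the report, was 94.7% with under 10% mitochondrial UMIs and 96.7% with doublets kept. The share labelled P180, 98.4% in the report, was 96.7% with cells thinned to 1000 UMIs, 98.6% with no mitochondrial limit and 97.4% with doublets kept. The cause of these moves was not tested. For single members 56 ratios were recomputed, and all 56 had a log2 value above 0, from 3.95 to 11.1. The sign of these ratios and of the sum's ratio is no support, because the members were picked as high in 1 library. With the members kept for clustering, at resolution 0.5 and with seed 2 the neutrophil-like cells were unchanged. The member ratios under those settings therefore repeat the report's own values. Sums over 10 locus genes and without shared barcodes, also chosen after seeing the data, lay within the interval of the report's value. No paired analysis was possible because each label has 1 library. The small number of cells limits the Camp- and Ngp-led group labelled E18.5, where 20 cells held 69 stefin A UMIs and a single cell held 30 of them.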
